A study of Mus musculus with 2 samples.

Results

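The microRNA (miRNA) genes described here are the mir-200 family (Mir200b, Mir200a, Mir429, Mir200c and Mir141), the skin miRNA genes Mir203 and Mir205, and the mir-183 cluster (Mir183, Mir96 and Mir182). They were chosen by name and are 10 of the 2202 miRNA genes counted. Small RNA was sequenced from hippocampal tissue of male B6CASTF1/J mice, F1 hybrids aged 18 to 20 months. There was 1 group, with 2 libraries numbered as biological replicates 1 and 2, so no treatment, age or genotype was compared. The libraries have separate tissue entries and share a donor entry, and nothing in the labels says that they came from separate animals, so the spread may be technical. Sense miRNA counts came to 3758318 in replicate 1 and 5598792 in replicate 2.

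The mir-200 family is known for keeping epithelial cells in the epithelial state. Its members repress the transcription factors Zeb1 and Zeb2, which in turn repress the mir-200 genes. Mir203 is a miRNA of differentiating skin cells that lowers the stem cell factor p63, and Mir205 is a miRNA of stratified epithelia and skin stem cells. The mir-183 cluster is best known from photoreceptors, hair cells of the inner ear and sensory neurons, and mutations of Mir96 cause hearing loss in mice.

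The mature sequences show which members can pair with the same target sites. They are the arms usually described as the active ones, taken from RefSeq on GRCm38.p6, and all 10 members had an entry. Capitals mark the seed, bases 2 to 8, which directs pairing with messenger RNAs.
miR-200b-3p: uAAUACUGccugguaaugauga
miR-200c-3p: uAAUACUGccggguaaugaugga
miR-429-3p: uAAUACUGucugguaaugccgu
miR-200a-3p: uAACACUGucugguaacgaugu
miR-141-3p: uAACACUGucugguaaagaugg
miR-203-3p: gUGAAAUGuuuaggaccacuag
miR-205-5p: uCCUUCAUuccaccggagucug
miR-183-5p: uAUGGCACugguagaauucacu
miR-96-5p: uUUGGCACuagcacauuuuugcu
miR-182-5p: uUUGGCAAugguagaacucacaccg

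The mir-200 family falls into 2 seed groups, which do not follow its genomic clusters. Mir200b, Mir200c and Mir429 share the seed AAUACUG, complementary to the site CAGUAUU. Mir200a and Mir141 share the seed AACACUG, complementary to CAGUGUU. Counted from the 5′ end, miR-200a-3p differs from miR-200b-3p inside the seed by U4C, and outside it by C9U, U17C and A22U. Across clusters, miR-200c-3p differs from miR-200b-3p by U11G and A22G over the 22 bases compared, and miR-141-3p differs from miR-200a-3p by C17A and U22G. Each mir-200 seed was found in no other mature sequence of the 1738 in the RefSeq table.

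The members of the mir-183 cluster have related but distinct seeds. Mature miR-183-5p and miR-182-5p were identical at 18 of 22 positions, with U2A and A8C, read from miR-182-5p to miR-183-5p, inside the seed. Mature miR-96-5p matched miR-182-5p at 12 of 23 positions and differed from it in the seed only by A8C. The full seed of miR-96-5p occurs once more in the table, in miR-1271-5p, whose gene (Gm24195) had 0 counts in both libraries.

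Reads of near-identical genes can be lost from such counts, because a read that maps to several places enters no gene. No member's mature sequence was contained in another annotated hairpin. The longest stretch that a member shared with another hairpin was 17 nt, between Mir200a and Mir141, followed by 14 nt between Mir200b and Mir200c and between Mir205 and Mir6397. The 10 hairpins lie at 5 places in mm10 (GENCODE M21). Mir200b (chromosome 4, 156055681 to 156055750), Mir200a (156054896 to 156054985) and Mir429 (156053905 to 156053987) lie on the minus strand inside Ttll10, in its introns. They also lie inside the non-coding gene Gm13648, in an intron for Mir200b and Mir200a and in an exon for Mir429. Mir200c (chromosome 6, 124718322 to 124718390) and Mir141 (124717914 to 124717985) lie between Phb2 and Ptpn6 in an intron of the non-coding gene Gm15884, and Mir141 also overlaps an exon of Gm29008. Mir183 (chromosome 6, 30169668 to 30169737), Mir96 (30169446 to 30169551) and Mir182 (30165918 to 30165992) lie between Nrf1 and Ube2h with no overlapping gene on either strand. Mir203 (chromosome 12, 112130880 to 112130955, plus strand) lies between Aspg and Kif26a, and Mir205 (chromosome 1, 193507463 to 193507530) inside 4631405K08Rik, a non-coding gene, in an exon.

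All 10 genes had counts in both libraries, and 8 passed the detection limit of 10 counts in each. Mir205 and Mir96 did not. Levels are given as CPM, a gene's count per 1000000 of the library's sense miRNA counts, not divided by length, since the mature sequences are 22 to 25 nt long. Means are given ± SD over 2 libraries, and intervals are 95% Wilson intervals, which cover counting error only. In bulk tissue, fewer cells of a type and less RNA per cell cannot be told apart.

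**Figure D1:**
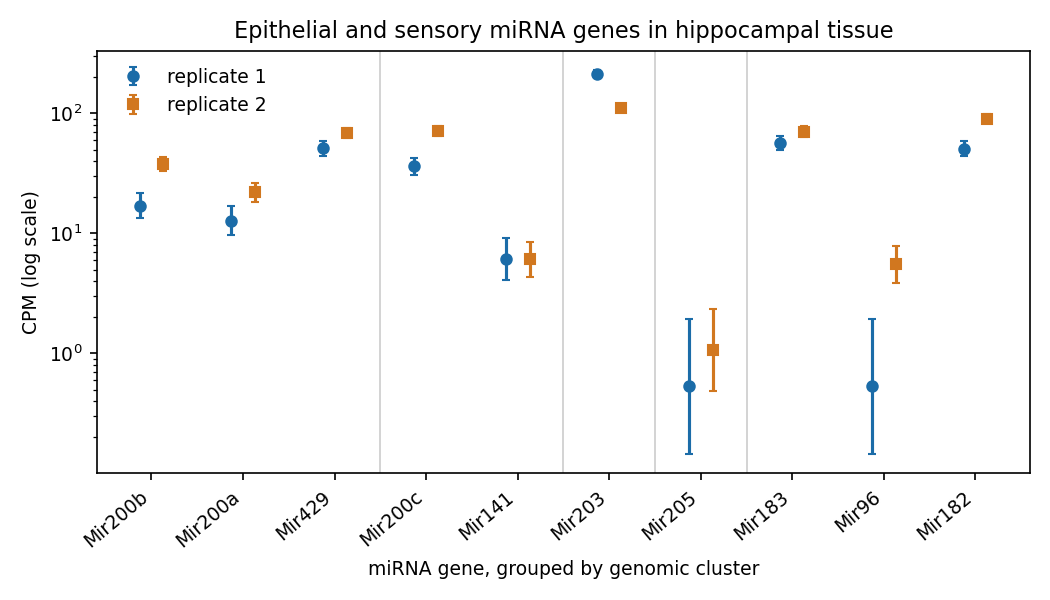
Level of each of the 10 miRNA genes in CPM (log axis) in replicate 1 (circles) and replicate 2 (squares), with 95% Wilson intervals as bars and grey lines between genomic clusters. Mir203 is the highest gene in both libraries, and Mir205 is near 1 CPM in both.

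The mir-200 family was present at low level. On chromosome 4, Mir429 had 192 counts in replicate 1 and 386 in replicate 2, or 51.1 CPM (interval 44.4 to 58.8) and 68.9 CPM (62.4 to 76.2). Mir200b had 64 and 213 counts, or 17.0 CPM (13.3 to 21.7) in replicate 1 and 38.0 CPM (33.3 to 43.5) in replicate 2. Mir200a had 48 and 123 counts, or 12.8 CPM (9.63 to 16.9) and 22.0 CPM (18.4 to 26.2). All 3 stood higher in replicate 2 in CPM, and Mir429, the gene farthest downstream, was the highest of the 3 in both libraries. On chromosome 6, Mir200c had 136 and 399 counts, or 36.2 CPM (30.6 to 42.8) in replicate 1 and 71.3 CPM (64.6 to 78.6) in replicate 2. Its neighbour Mir141 had 23 and 34 counts, or 6.12 CPM (4.08 to 9.18) and 6.07 CPM (4.35 to 8.49), so its intervals overlapped while those of Mir200c did not.

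Summed, the 5 genes of the family gave 123 (replicate 1) and 206 CPM (replicate 2) (165 ± 58.8 CPM). The chromosome 4 cluster gave 65.7% (interval 61.2 to 69.8%) of the family's counts in replicate 1 and 62.5% (59.7 to 65.3%) in replicate 2. Read by seed, AAUACUG carried 84.7% (81.1 to 87.7%) of the family's counts in replicate 1 and 86.4% (84.3 to 88.3%) in replicate 2. The intervals overlap, and whether the make-up by seed differs between the libraries was not tested. The AAUACUG group summed to 141 ± 52.3 CPM, and the AACACUG group of Mir200a and Mir141 to 23.5 ± 6.47 CPM.

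The skin genes stood at opposite ends of the 10. Mir203 had 809 counts in replicate 1 and 622 in replicate 2, or 215 CPM (201 to 231) and 111 CPM (103 to 120), although replicate 2 is the deeper library. It was the highest member in both libraries and the only one whose raw count was lower in replicate 2. Mir205 had 2 and 6 counts, or 0.532 CPM (0.146 to 1.94) in replicate 1 and 1.07 CPM (0.491 to 2.34) in replicate 2. Its CPM ratio of replicate 1 over replicate 2 was 0.497, with an exact 95% counting interval of 0.0490 to 2.78 that includes equal levels. RefSeq also places Mir203b on the strand opposite Mir203, under the symbol Gm51289, and the opposite-strand column of Mir203 held 1 count in each library.

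In the mir-183 cluster the outer genes were near each other and Mir96 was far lower. Mir182 had 191 and 508 counts, or 50.8 CPM (44.1 to 58.6) in replicate 1 and 90.7 CPM (83.2 to 99.0) in replicate 2. Mir183 had 215 and 396 counts, or 57.2 CPM (50.1 to 65.4) and 70.7 CPM (64.1 to 78.0). Mir183 was the higher of this pair in replicate 1, where their intervals overlap, and Mir182 in replicate 2, where they do not. Mir96, which lies between them, had 2 and 31 counts, or 0.532 CPM (0.146 to 1.94) and 5.54 CPM (3.90 to 7.86). It made up 0.490% (interval 0.135 to 1.77%) of the cluster's counts in replicate 1 and 3.32% (2.35 to 4.67%) in replicate 2. Its CPM ratio of replicate 1 over replicate 2 was 0.0961, with an exact counting interval of 0.0111 to 0.378, and rests on 2 counts in replicate 1. Whether mature sequences are captured unequally in library preparation was not tested, so the order of genes is an order of counted reads.

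By mean level the order was Mir203 (163 ± 73.7 CPM), Mir182 (70.8 ± 28.2), Mir183 (64.0 ± 9.56), Mir429 (60.02 ± 12.6), Mir200c (53.7 ± 24.8), Mir200b (27.5 ± 14.9), Mir200a (17.4 ± 6.504), Mir141 (6.10 ± 0.0332), Mir96 (3.03 ± 3.54) and Mir205 (0.802 ± 0.381). The ranges of the 2 libraries did not overlap between Mir203 and Mir182, between Mir200a and Mir141, and between Mir141 and Mir96. The other neighbours in this order overlapped, so the places from Mir182 to Mir200a, and those of Mir96 and Mir205, are not resolved step by step. Mir141 and Mir96 were also close in replicate 2, at 6.07 CPM (interval 4.35 to 8.49) and 5.54 CPM (3.90 to 7.86), so their order there is within counting error. The median detected miRNA gene had 102 CPM, and Mir203 was the only member whose mean lay above it. Among the 384 detected genes Mir203 ranked 169 by mean CPM and Mir141 ranked 339.

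All 10 genes together had 1682 counts in replicate 1 and 2718 in replicate 2, or 448 CPM (interval 427 to 469) and 485 CPM (468 to 504). The direction of the sum turned with the scaling: its log2 ratio of replicate 1 over replicate 2 was -0.12 in CPM and 0.20 after the TMM scaling used in the tests further on. The make-up of the sum differed between the libraries. Mir203 made up 48.1% (45.7 to 50.5%) of it in replicate 1 and 22.9% (21.3 to 24.5%) in replicate 2. The other 9 genes gave 232 (interval 217 to 248) and 374 CPM (359 to 391) in replicates 1 and 2, a grouping chosen after the values were seen. The mir-183 cluster held 24.3% (22.3 to 26.4%) and 34.4% (32.6 to 36.2%) of the counts of the 10, and the mir-200 family 27.5% (25.4 to 29.7%) and 42.5% (40.6 to 44.4%), in replicates 1 and 2.

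**Figure D2:**
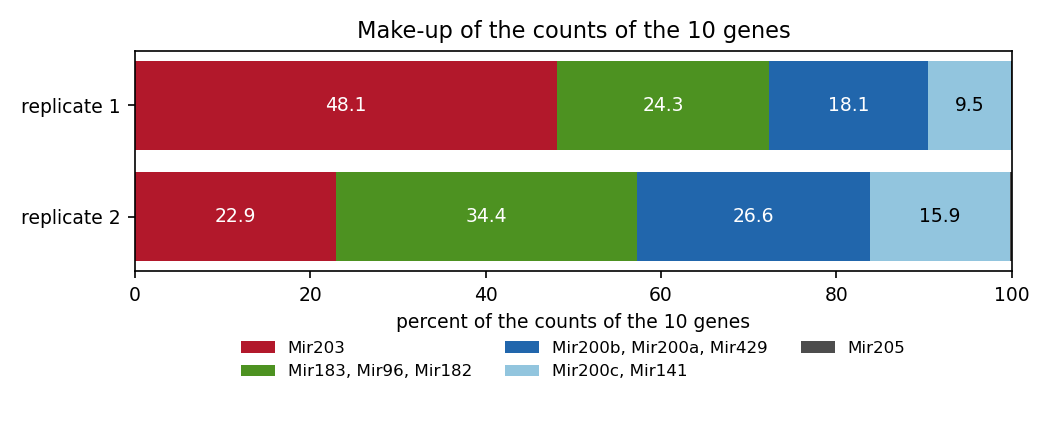
Percent of the counts of the 10 genes given by each genomic cluster or single gene, one bar per library. Mir203 fills 48.1% of the bar of replicate 1 and 22.9% of that of replicate 2, and Mir205 is too small to see at 0.119% and 0.221%.

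How far the libraries differed was tested for each detected gene with an exact two-sided binomial test, with library sizes scaled by TMM (trimmed mean of M values) and Benjamini-Hochberg adjustment over all 384 detected genes. The test compares these libraries and covers counting error only. It called 65.1% of all detected genes, 34.1% with the higher level in replicate 1 and 31% with it in replicate 2, so calls are common and 4 called members of 8 tested are no more than that background. The coefficient of variation between the libraries over all detected genes was 34.2% (edgeR common dispersion). Mir203 was 2.40-fold higher in replicate 1 (log2 ratio of replicate 1 over replicate 2 1.26, exact binomial test, adjusted p = 8.06e-61). The size of its ratio lay at percentile 93.2 of all detected genes. The median detected gene differed by 1.34-fold.

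The other 3 calls were higher in replicate 2. Mir200b had a log2 ratio of replicate 1 over replicate 2 of -0.81 (adjusted p = 4.54e-05), Mir200c of -0.65 (adjusted p = 5.09e-06) and Mir182 of -0.51 (adjusted p = 3.09e-05), all by the exact binomial test. These ratios lay at percentiles 80.2, 71.1 and 59.4 by size. Mir200a (log2 ratio -0.44, adjusted p = 0.0951), Mir429 (-0.11, 0.453), Mir141 (0.28, 0.478) and Mir183 (0.01, 0.963) were not called by that exact test. Scaling by total counts in place of TMM moved the median log2 ratio of all detected genes from 0.01 to -0.29. Replicate 1 was then the higher in 76 calls and replicate 2 in 195, against 131 and 119 with TMM. Under it Mir200a, Mir429 and Mir183 were also called higher in replicate 2, and Mir203 was still called higher in replicate 1.

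**Figure D3:**
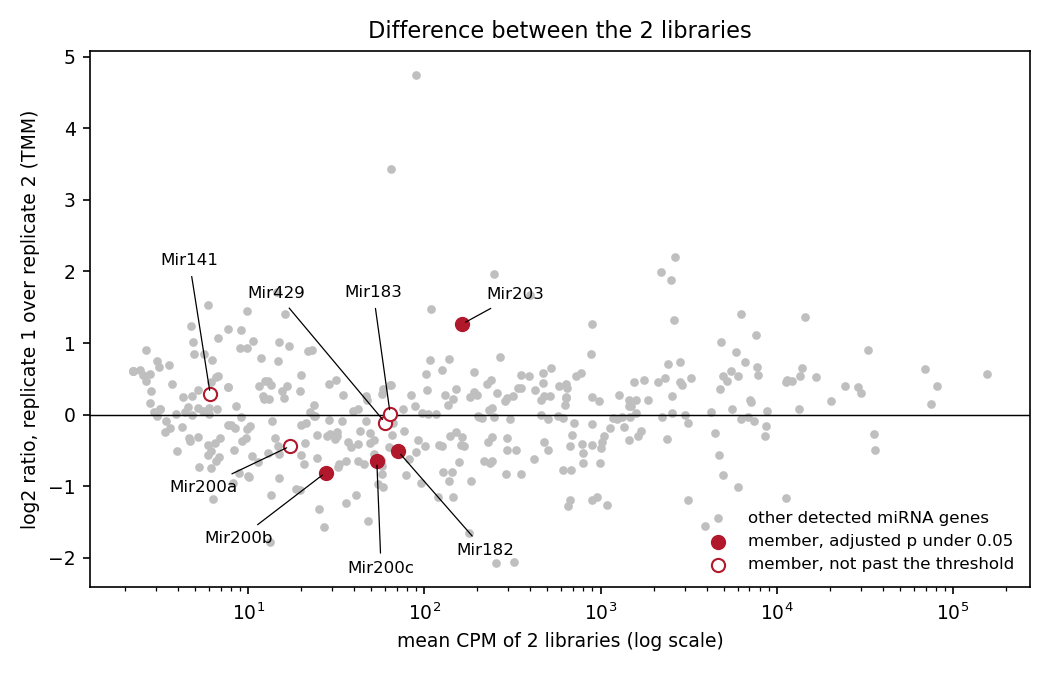
Log2 ratio of replicate 1 over replicate 2 (TMM scale) against mean CPM (log axis) for the 384 detected miRNA genes, with the 8 detected members in red and filled where adjusted p was under 0.05. Mir203 is the only filled member above 0, at 1.26, and Mir200b, Mir200c and Mir182 are the filled ones below it.

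Genes of a cluster can be compared inside each library, with no scaling between libraries. A two-sided Fisher's exact test was run on the 107 pairs of adjacent detected miRNA genes that lie on 1 strand with starts within 10 kb, with Benjamini-Hochberg adjustment over all of them. It called a different ratio between the libraries in 72.9% of the pairs, and in 2 of the 4 pairs of the mir-200 and mir-183 clusters, which is no more than that background. In the chromosome 6 pair, Mir200c had 5.91 times the counts of Mir141 in replicate 1 and 11.7 times in replicate 2 (Fisher's exact test, adjusted p = 0.0278). Mir183 had 1.13 times the counts of Mir182 in replicate 1 and 0.780 times in replicate 2 (Fisher's exact test, adjusted p = 0.00379).

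The chromosome 4 pairs were not called. Mir200a had 0.250 times the counts of Mir429 in replicate 1 and 0.319 times in replicate 2 (Fisher's exact test, adjusted p = 0.260). Mir200b had 1.33 times the counts of Mir200a in replicate 1 and 1.73 times in replicate 2 (adjusted p = 0.295 by the same exact test). The intervals still allow a difference: Mir200a was 42.9% (34.1 to 52.1%) of its pair with Mir200b in replicate 1 and 36.6% (31.6 to 41.9%) in replicate 2. Mir200b alone was 21.1% (16.8 to 26.0%) of the cluster of 3 in replicate 1 and 29.5% (26.3 to 32.9%) in replicate 2. The intervals of this share do not overlap. At a limit of 50 counts in both libraries, Mir429 and Mir200b became adjacent and their ratio was called (Fisher's exact test, adjusted p = 0.00346), as were 81.8% of all pairs there. The median change of the ratio between libraries was 1.37-fold over the 4 member pairs and 1.51-fold over all 107. The larger gene of a pair had a median of 2.67 times the counts of the smaller in replicate 1 and 2.43 times in replicate 2 over the 4 member pairs. Over all 107 pairs these medians were 5.59 in replicate 1 and 6.12 in replicate 2.

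**Figure D4:**
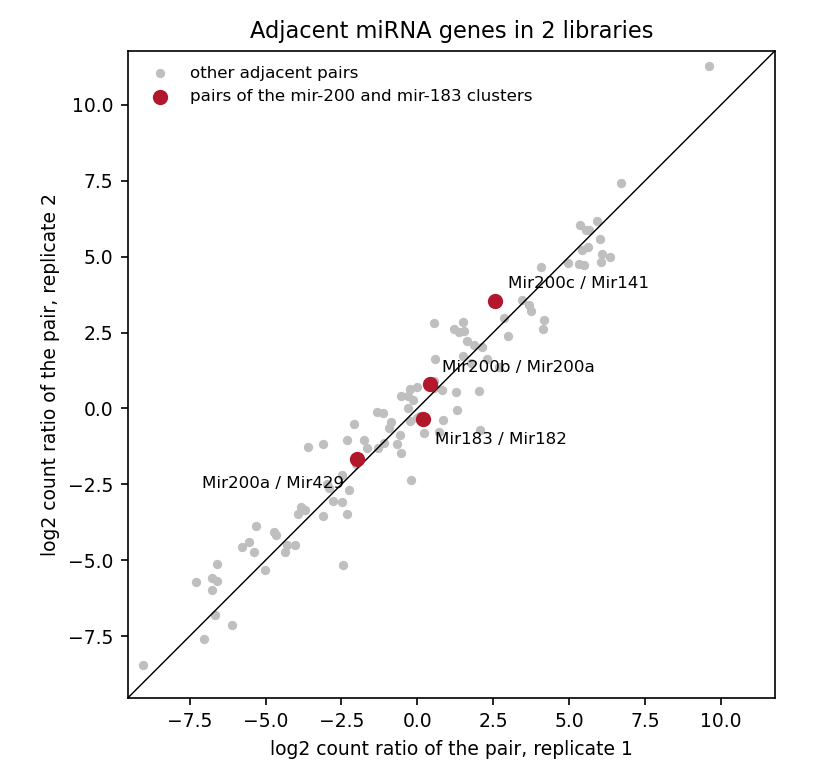
Log2 count ratio of adjacent miRNA genes in replicate 1 (x axis) and replicate 2 (y axis) for 107 pairs, with the 4 pairs of the mir-200 and mir-183 clusters in red and the line of equal ratios. The pair Mir200c and Mir141 lies above the line, with ratios of 5.91 and 11.7, and Mir183 and Mir182 below it, with ratios of 1.13 and 0.780.

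The detected genes whose levels in the 2 libraries came closest to each member, by distance in log2(CPM + 1), came from 376 candidates. They were Mir449a for Mir183 (56.4 CPM in replicate 1 and 71.4 in replicate 2), Mir206 for Mir182 (52.2 and 79.7), Mir491 for Mir429 (49.5 and 65.9) and Mir344b for Mir200c (36.7 and 67.5). They were Mir152 for Mir200b (16.8 and 32.5), Mir6236 for Mir200a (12.8 and 21.8) and Mir1247 for Mir141 (6.65 and 5.72). Mir203 had the least close match of the 8, Mir9-3 (160 and 116 CPM), at a distance of 0.428. With 2 libraries such likeness is one of level only.

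Marker lists place these levels in the tissue. Of 13 neuronal miRNA genes 10 were detected, and the list had a sum of 51922 CPM (replicate 1) and 55431 CPM (replicate 2), led by Mir132 (16652 ± 1642 CPM), Mir128-1 (13308 ± 1589) and Mir137 (12226 ± 884). The 3 copies of Mir124a, the best known neuronal miRNA, had at most 5 counts in a library, and Mir124a-3 had 0 in both. Counts of genes with near-identical copies, Mir124a, Mir128, Mir138, Mir7 and Mir194 among them, are uncertain, since reads that map to several places are left out. By summed CPM the 10 epithelial and sensory genes (467 ± 26.8) thus stood far below the neuronal list (53676 ± 2481).

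Lists for other cells that the tissue could hold were read in the same way. Of the 12 choroid plexus and ependyma genes 11 matched a symbol and 7 were detected, with sums of 2122 CPM in replicate 1 and 3174 CPM in replicate 2. Mir34c (1328 ± 231 CPM), Mir204 (898 ± 197) and Mir1298 (255 ± 246) led that list, and Mir449b and Mir449c were at 0 in both libraries. The exact binomial test called 5 of the 7, each with the higher level in replicate 2, against 31% of all detected genes. These calls include Mir204, whose log2 ratio was only -0.13. They may not be independent, since Mir1264, Mir1298 and Mir448 lie near each other on chromosome X. Of the 10 detected neuronal genes, the same test called 6 with a log2 ratio below 0 and 4 with one above 0. Whether either list departs from the background was not tested. Mir34c (log2 ratio -0.04, adjusted p = 0.189) and Mir449a (-0.02, 0.905) were not called by that exact test.

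The pituitary and endocrine list (4 of 4 detected) had sums of 3156 (replicate 1) and 4327 CPM (replicate 2). Most of this came from Mir7b (3145 ± 658 CPM), with the endocrine gene Mir375 (288 ± 18.6) and Mir7-2 (183.1 ± 105) far lower. Which cells the Mir7b reads came from was not tested. The exact binomial test called 3 of the 4 genes higher in replicate 2 and Mir375 higher in replicate 1 (log2 ratio 0.18). It called 65.1% of all detected genes, 31% with the higher level in replicate 2, and whether this list departs from that was not tested. The calls include Mir7b, whose log2 ratio was only -0.11, on 10070 counts in replicate 1 and 20211 in replicate 2. On the total-count scale the ratio of Mir375 fell below 0, at 275 and 301 CPM. The list for gut, kidney and other epithelia (3 of 5 detected) reached 448 (replicate 1) and 480 CPM (replicate 2), nearly all from Mir31 (426 ± 6.23 CPM). Mir194-2 (26.8 ± 22.5 CPM) and Mir192 (11.4 ± 5.59) were called higher in replicate 2, Mir31 in replicate 1 on the TMM scale, and Mir194-1 was at 0 in both. Of the red blood cell list 2 of 4 genes matched a symbol, and both were detected, Mir451a at 51.5 ± 16.8 CPM and Mir144 at 13.2 ± 0.568 CPM. Mir451a was called higher in replicate 2 and Mir144 was not called. The median log2 ratio of replicate 1 over replicate 2 was below 0 in all 5 lists, though some hold few genes. It was -0.30 over 10 detected neuronal genes, -0.65 over 7 for choroid plexus and ependyma and -0.27 over 4 for pituitary. It was -0.66 over 3 for gut, kidney and other epithelia and -0.07 over 2 for red blood cells. Single genes stood above 0, among them Mir132 (0.52), Mir137 (0.46) and Mir31 (0.35). The median was -0.28 over the 8 detected members and 0.01 over all detected genes. Whether choroid plexus, blood, pituitary or other epithelial tissue bears on the members' levels was not tested.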

How the data were processed

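The deposited values are raw counts of reads for each miRNA gene, not normalized, made on mm10 with annotation M21 per the labels and the deposited notes. The tools that aligned and counted the reads are not named there. The third column was read as sense counts. Library sizes leave out the summary lines: 51.52% of reads in replicate 1 and 46.66% in replicate 2 mapped to several places, and 9.53% and 14.4% were unmapped. Symbols came from GENCODE M21, which named all 2202 identifiers, and mature sequences from RefSeq.

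The members and all lists were chosen with earlier results of these data known. Log2 ratios used TMM scaling (edgeR 4.0.16) and a pseudocount of 1 CPM. Binomial, Fisher and interval calculations used scipy 1.17.1 and statsmodels 0.14.6. The binomial and Fisher tests, not the intervals, were tried on simulated data that held counting error only. The limit that a count of 0 allows, 3 counts, is 0.798 CPM in replicate 1 and 0.536 CPM in replicate 2. Named genes are the members, the nearest detected gene to each, and the leading genes of each list. The alternatives were the unstranded counts, another denominator, DESeq2 (1.42.0) size factors or total counts, other count limits, a chi-square test, other pseudocounts, other distances, each library left out and, chosen after seeing the data, the sum without Mir203.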

Additional observations from a re-analysis of the deposited data

How the results depend on the processing

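The summed level of the 10 genes was 467 CPM, 506 CPM with the unstranded counts, whose total is smaller, and 164 per 1000000 reads of all kinds, a larger denominator; leaving out a library gave 448 to 485 CPM. Without Mir203 the sum was 303 CPM. The share of the seed AAUACUG was 84.7% and 86.4% in the single libraries; another denominator cannot move a share, and the unstranded counts are nearly the same for these genes, so its stability was not tested. The members called were 4 of 8 with DESeq2 size factors and with other pseudocounts, where 250 of 384 genes were called. They were also 4 of 8 with the unstranded counts, where 228 of 358 genes were called. With the chi-square test they were 4 of 8, where 251 of 384 genes were called. With a limit of 50 counts they were 4 of 6, where 221 of 281 genes were called. With total counts they were 7 of 8, where 271 of 384 genes were called. Without a filter they were 5 of 10, where 262 of 752 genes were called, many of them tested on very few counts. Mir96 was added there (log2 ratio -1.90, exact binomial test, adjusted p = 0.000614). That ratio includes the pseudocount of 1 CPM, which is larger than the 0.532 CPM of Mir96 in replicate 1. Without a pseudocount its log2 ratio was -3.06 on the TMM scale and -3.38 in CPM. The ratio of Mir183 turned to -0.30 with total counts, as that scaling shifts all genes. Calls over all genes ranged from 221 to 271, out of 281 to 752 genes tested. With starts within 2 kb, 1 of 3 member pairs was called, since Mir182 and Mir183 lie farther apart, where 63 of 85 pairs were called. With 50 counts in both libraries, Mir429 and Mir200b became adjacent and were called (exact Fisher test, adjusted p = 0.00346), where 72 of 88 pairs were called. Without a filter, 3 of 5 member pairs were called, where 78 of 141 pairs were called. These include Mir96 with Mir183 (exact Fisher test, adjusted p = 0.000547) and with Mir182 (adjusted p = 0.00902 by the same exact test). No paired analysis was possible because there is 1 group. Mir96 and Mir205 had 2 counts each in replicate 1, so their ratios rest on few reads. The counting interval of the ratio included equal levels for Mir205 (0.0490 to 2.78) and not for Mir96 (0.0111 to 0.378).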
